A study of Mus musculus with 8 samples.

Results

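Genes that mark macrophages and other white blood cells were followed through the differentiation of mouse embryonic stem cells (ESCs). The set was a list of 32 gene symbols chosen by known function, with earlier results of these data known. Of these, 31 were matched by symbol among the 20215 genes of the expression table. Sfpi1, the gene of the lineage factor PU.1, was the 1 symbol not matched and was not analysed here. RNA was sequenced from 8 libraries, 1 each for Uhrf1 knockout (KO) and wild-type (WT) cells as ESCs and as embryoid bodies (EBs) at weeks 1, 2 and 3. Uhrf1 encodes a nuclear protein that reads chromatin marks and helps to maintain DNA methylation, and the study asked how its loss alters gene expression as ESCs differentiate. The labels name E14, an ESC line, for both genotypes, and no further treatment separated the groups. ESCs were kept with leukaemia inhibitory factor on gelatin or on embryonic fibroblast feeders. With 1 library and 1 line per genotype, no group had a replicate. The intervals given are therefore exact binomial 95% intervals (Clopper-Pearson) that cover counting error only.

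Macrophages engulf debris and microbes. In the embryo they arise from blood progenitors of the yolk sac, depend on PU.1 and on the growth factor receptor Csf1r, and settle in tissues, where those of the brain are called microglia. EBs are floating aggregates in which ESCs form many tissues, blood cells among them. The 31 genes cover growth factor and chemokine receptors, the chains of complement C1q, Fc receptors with their adaptors, lysosomal and microbe-killing proteins, uptake receptors, white cell surface proteins, actin-binding proteins and the chemokine gene Pf4.

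Promoter sequences are shown for 6 of the genes because many of the 31 rose and fell together in the EBs. PU.1 is known to bind sites with the core letters GAGGAA, which read TTCCTC on the other strand. The sequences are from RefSeq (GRCm38.p6) and hold the 250 bases before the annotated start, on the gene's own strand, with matches to that core in capitals.
C1qb, chr4:136886201-136886450, minus strand: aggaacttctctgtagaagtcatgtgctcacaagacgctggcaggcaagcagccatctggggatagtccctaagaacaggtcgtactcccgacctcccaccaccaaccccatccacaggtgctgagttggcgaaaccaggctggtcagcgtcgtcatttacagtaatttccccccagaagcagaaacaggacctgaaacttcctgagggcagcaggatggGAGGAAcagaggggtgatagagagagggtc
C1qc, chr4:136892915-136893164, minus strand: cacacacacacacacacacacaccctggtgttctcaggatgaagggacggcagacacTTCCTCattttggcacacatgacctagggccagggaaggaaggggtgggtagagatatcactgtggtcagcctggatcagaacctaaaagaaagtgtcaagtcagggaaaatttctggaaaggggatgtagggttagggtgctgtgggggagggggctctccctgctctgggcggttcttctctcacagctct
Ctss, chr3:95526536-95526785, plus strand: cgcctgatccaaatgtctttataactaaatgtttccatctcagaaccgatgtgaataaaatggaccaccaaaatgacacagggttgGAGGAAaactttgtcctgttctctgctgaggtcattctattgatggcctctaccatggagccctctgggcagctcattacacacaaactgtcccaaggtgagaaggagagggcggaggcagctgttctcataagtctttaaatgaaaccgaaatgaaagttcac
Cx3cr1, chr9:120068297-120068546, minus strand: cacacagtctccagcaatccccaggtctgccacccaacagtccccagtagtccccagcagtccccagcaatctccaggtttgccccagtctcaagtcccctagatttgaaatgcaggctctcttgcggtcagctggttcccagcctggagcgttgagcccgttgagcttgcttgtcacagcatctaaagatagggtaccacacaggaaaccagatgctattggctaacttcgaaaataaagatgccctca
Lyz2, chr10:117282273-117282522, minus strand: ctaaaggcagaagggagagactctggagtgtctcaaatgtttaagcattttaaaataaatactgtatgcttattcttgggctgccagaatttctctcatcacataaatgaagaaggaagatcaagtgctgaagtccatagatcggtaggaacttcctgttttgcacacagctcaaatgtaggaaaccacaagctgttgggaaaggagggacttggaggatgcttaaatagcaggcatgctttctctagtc
Lcp1, chr14:75130873-75131122, plus strand: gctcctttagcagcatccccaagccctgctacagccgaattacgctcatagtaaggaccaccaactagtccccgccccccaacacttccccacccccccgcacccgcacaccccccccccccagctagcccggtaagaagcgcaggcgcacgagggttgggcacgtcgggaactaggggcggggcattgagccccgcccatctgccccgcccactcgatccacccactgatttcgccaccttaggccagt
C1qb and C1qc (complement chains) and Ctss (a lysosomal protease) are shown as genes with a match and a strong week 2 peak. Cx3cr1 and Lyz2 peaked at the same week with no match in these bases, and Lcp1 is shown as the contrasting GC-rich promoter of a gene that was also detected in KO ESCs.

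In windows that also took in the 50 bases after the start (300 bases in all, both strands searched), GAGGAA occurred in 15 of the 24 genes that had a window, which is 62.5%, against 27.3% of the 14601 genes of the table with one. The longer form GAGGAAGT, part of the same sites, occurred in 4 of 24 (16.7%, against 3.08%), in C1qc, Ctss, Cd53 and Pf4. The AP-1 motif TGANTCA occurred in 4 (16.7%, against 7.16%), and TATAAA in 1 (4.17%, against 8.54%). The windows were poor in CpG, the dinucleotide that carries DNA methylation, with a median of 4 CpG (quartiles 3 and 6) against 15 over all genes (quartiles 4 and 25). A count of 5 or fewer was seen in 16 of 24 (66.7%), against 29.6% of all genes. Among windows with 5 or fewer CpG, GAGGAA stood in 12 of 16 (75%), against 32.2% of the 4324 such genes. Coro1a and Lcp1, both with 19 CpG, were the richest, and Lyz2, Cybb and Aif1, with 1 each, the poorest. These matches describe letters, not binding, and no test was made. Windows were not used for Csf1r, C1qa, Tyrobp, Cd14, Itgb2, Emr1 and Cd52.

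**Figure D1:**
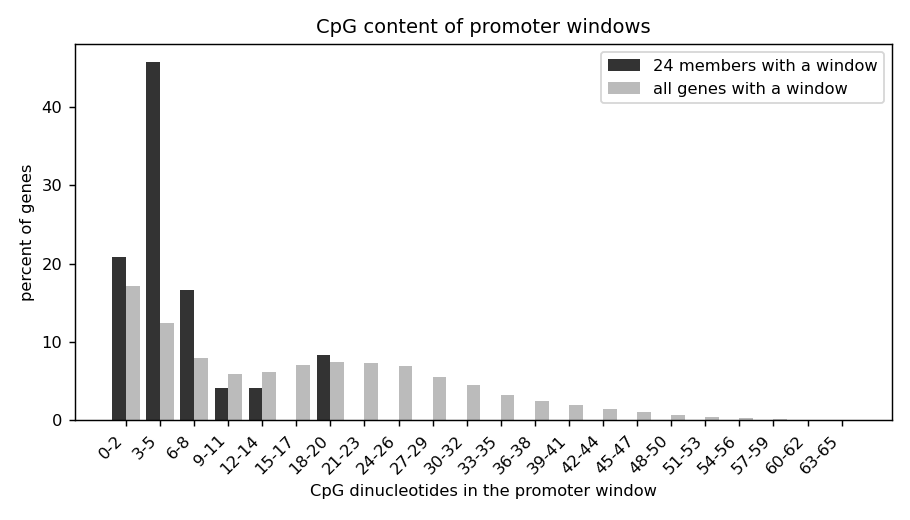
Percent of genes (vertical axis) by number of CpG dinucleotides in the 300-base promoter window (horizontal axis), for the 24 white blood cell genes with a window (dark bars) and all 14601 genes with one (light bars). The dark bars gather at 5 CpG or fewer, which holds 66.7% of the 24 genes and 29.6% of all genes.

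Levels are given in RPKM, a read count divided by transcript length and library depth, computed by the authors and turned back from the deposited log2 values. Estimated depth was 175000000 and 167000000 reads for KO and WT ESCs, and 12600000 to 18900000 reads in KO EBs against 31700000 to 45700000 in WT EBs, so KO EB values carry the wider counting error. Uhrf1, the targeted gene, read 45.2, 27.1, 34.6 and 31 RPKM in KO ESCs and EBs at weeks 1, 2 and 3, against 78.8, 43.8, 36.8 and 41 in WT. Its KO level was 57.4%, 61.9%, 94.1% and 75.6% of WT at those stages. Because RPKM covers the full gene, a missing exon would not be seen in it, so it does not check the deletion, and KO below means the libraries so labelled. The sums of marker lists for T cells (1.96 to 16.5 RPKM over the 8 libraries), B cells (1.63 to 8), NK cells (0.0116 to 0.5) and mast cells (0.17 to 1.99) were low throughout, and Ncr1 (NK cells) and Tpsab1 (mast cells) were listed at 0 in all 8. The T cell sum was highest in ESCs, where Lck and Zap70 read 7.19 and 5.21 RPKM in KO against 7.32 and 4.36 in WT, and Tyrobp was listed at 0. Csf1r, Emr1 and the C1q chains, which define macrophages, were at 1 RPKM or more in both week 2 libraries, so macrophage markers were found at that stage. Lists of neutrophil and of megakaryocyte and platelet genes were not low at every stage and are given with the later results.

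Most of the white blood cell genes were nearly silent in ESCs, appeared in part at week 1, peaked at week 2 and declined by week 3, in both genotypes. Cd68 (61.2 RPKM in KO, 43.6 in WT), Laptm5 (13.1 in KO, 13.5 in WT) and Coro1a (5.98 in KO, 7.38 in WT) were not silent in ESCs. Of the 31 genes, the numbers at an RPKM of 1 or more were 4, 13, 28 and 21 in KO ESCs and EBs at weeks 1, 2 and 3, against 3, 14, 31 and 28 in WT. Their median level was 0.0455, 0.598, 6.96 and 2.16 RPKM in the KO libraries and 0.0244, 0.721, 21.5 and 4.33 in the WT libraries. The highest stage was week 2 for 23 of 31 genes in KO and for 28 of 31 in WT. In KO, Cd68 and Coro1a were highest in ESCs, Itgb2, Cd52 and Pf4 at week 1, and Lyz1, Cd14 and Itgam at week 3. In WT the exceptions were Coro1a in ESCs, Pf4 at week 1 and Cd14 at week 3.

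**Figure D2:**
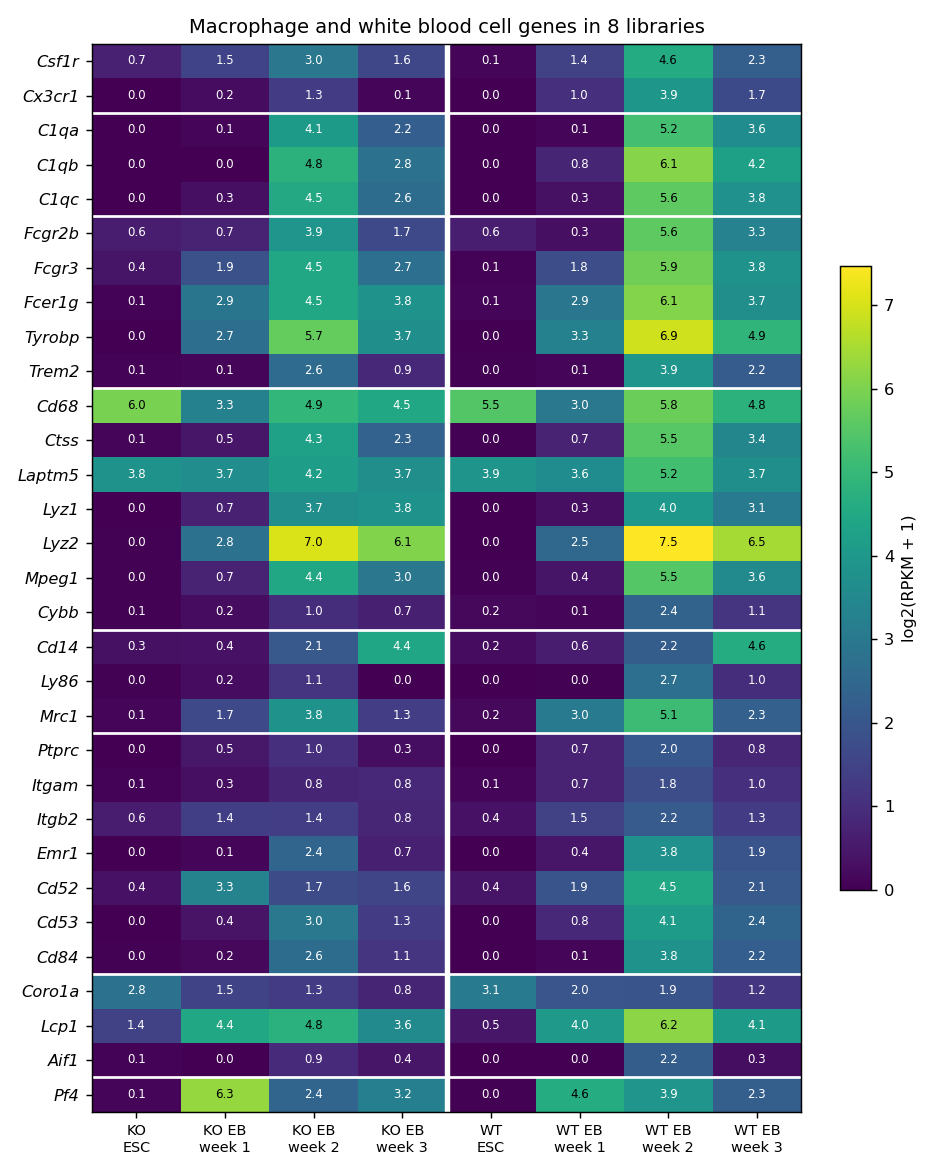
Level of each of the 31 genes as log2(RPKM + 1) (colour and printed value), with genes down the page grouped by role between white lines and the 8 libraries across, KO on the left and WT on the right. The week 2 columns are brightest in both genotypes, and the KO week 2 column (median 6.96 RPKM) is dimmer than the WT one (median 21.5 RPKM).

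A gene was counted as risen or fallen when 2 libraries differed by 1.5-fold or more on RPKM + 1, among genes that reached an RPKM of 1 in at least 1 of the pair. A gene that reached an RPKM of 1 in only 1 of the pair could differ in 1 direction only, so counts are also given over the genes that reached it in both, a choice made after seeing the data. By that count, 10 of the 13 genes tested rose and 2 fell in KO at week 1 relative to ESCs, where 34% of all genes tested rose and 27.1% fell. In WT 11 of 14 rose and 2 fell, beside 33.7% and 26.8% of all genes. Most of these rises were of genes that reached an RPKM of 1 at week 1 alone, since of the 4 genes at that level in both KO libraries 1 rose and 2 fell, and of the 3 in both WT libraries 0 rose and 2 fell. At week 2 relative to week 1, 21 of 28 rose and 2 fell in KO (21.2% and 7.31% of all genes), and 29 of 31 rose and 1 fell in WT (21.3% and 10%). Of these genes 15 in KO and 17 in WT reached an RPKM of 1 at week 2 alone. Over the genes that reached it at both weeks, 7 of 13 rose and 2 fell in KO (13.2% and 6.49% of all such genes), and 12 of 14 rose and 1 fell in WT (14.5% and 9.7%). At week 3 relative to week 2, 2 of 28 rose and 20 fell in KO (7.19% and 7.31% of all genes), and 1 of 31 rose and 30 fell in WT (13.2% and 10.1%). Over the genes at an RPKM of 1 in both, 15 of 21 fell in KO and 27 of 28 in WT (5.38% and 9.3% of all such genes). The gene that rose in WT at week 3 was Cd14, and the gene that fell in WT at week 2 was Pf4. Neighbouring steps share a library, so they are given side by side only.

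Tests across libraries were made with limma on all 13249 genes that reached an RPKM of 1 in 2 or more libraries, 30 of the 31 among them (Aif1 was not). EBs against ESCs, over both genotypes, called 8 of the 30 higher and 1 lower at an adjusted p under 0.05, beside 31.6% and 22.5% of all genes. Few of the set could come out lower, since 4 of the 31 reached an RPKM of 1 in KO ESCs and 3 in WT ESCs. With the libraries scaled by median ratios, the split over all genes turned to 23.5% higher and 30.7% lower, and 7 of the genes were higher and 1 lower. At an unadjusted p under 0.05, 11 of the 30 passed, beside 60.6% of all genes. The actin-bundling gene Lcp1 was higher by 3.56 ± 0.67 on the log2 scale (SE, adjusted p = 0.00409, limma), Fcer1g by 3.9 ± 0.8 (adjusted p = 0.00603), Tyrobp by 4.54 ± 1.06 (adjusted p = 0.0103) and Lyz2 by 5.38 ± 1.5 (adjusted p = 0.0204). Pf4, Itgb2, Mrc1 and Fcgr3 were also called higher. Coro1a, the actin-binding coronin of white blood cells, was the gene called lower, at -1.49 ± 0.29 (adjusted p = 0.00489, limma). The count depended on the libraries used. Without the week 1 EBs 20 of the genes were called, and the shares over all genes also rose, to 38.9% higher and 24.9% lower. Leaving out KO ESC or WT ESC left 1 ESC library. The median log2 effect over the 30 genes was then 2.44 and 1.7, against 2.06 with all libraries.

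The peak at week 2 was tested with a contrast chosen after seeing the data, week 2 against the mean of weeks 1 and 3 over the 6 EB libraries. C1qb (3.5 ± 0.18 log2, adjusted p = 0.0309), Mrc1 (2.41 ± 0.14, adjusted p = 0.037), Tyrobp (2.67 ± 0.16, adjusted p = 0.037) and Lyz2 (2.79 ± 0.18, adjusted p = 0.043) were called higher by limma, among 19 of 13249 genes, 0.143%, and 0 were called lower, beside 0.0377%. At an unadjusted p under 0.05, 25 of the 30 genes passed, beside 21.2% of all genes. Of the 31 genes, 13 in KO and 14 in WT reached an RPKM of 1 at week 1, against 28 and 31 at week 2. Genes that entered the fit through week 2 could hardly be lower there than at week 1. The 4 calls were lost when any 1 EB library was left out, with no filter on low values, and without the mean trend in limma. The steady trend per week called 1 gene higher and 0 lower, beside 1.36% and 0.4% of all genes. That gene was Cd14, which gained 2.03 ± 0.12 log2 per week (adjusted p = 0.0328, limma), and the call was lost without any of the EB libraries other than KO week 2, and with no filter on low values.

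The main comparison was that of KO with WT at each stage. At week 2 the white blood cell genes were lower in KO EBs almost throughout. Of the 31 genes, 0 rose and 28 fell in KO, beside 10% and 6.42% of the 12689 genes tested, and the median log2 difference was -1.25, against 0.05 over all genes tested. Cybb, Itgam and Aif1 passed the filter through the WT library alone and so could only be lower. Of the 28 genes that reached an RPKM of 1 in KO as well as WT, 0 rose and 25 fell, beside 6.79% and 5.55% of all such genes. The KO level of those 28 genes was 39.6% of WT in the median, with quartiles of 32.2% and 45.9%, and 15 of them lay between 33% and 50%. The extremes were Cx3cr1 at 10.6% and Cd14 at 89.9%. In RNA from whole EBs, fewer cells of a type and less RNA per cell cannot be told apart.

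**Figure D3:**
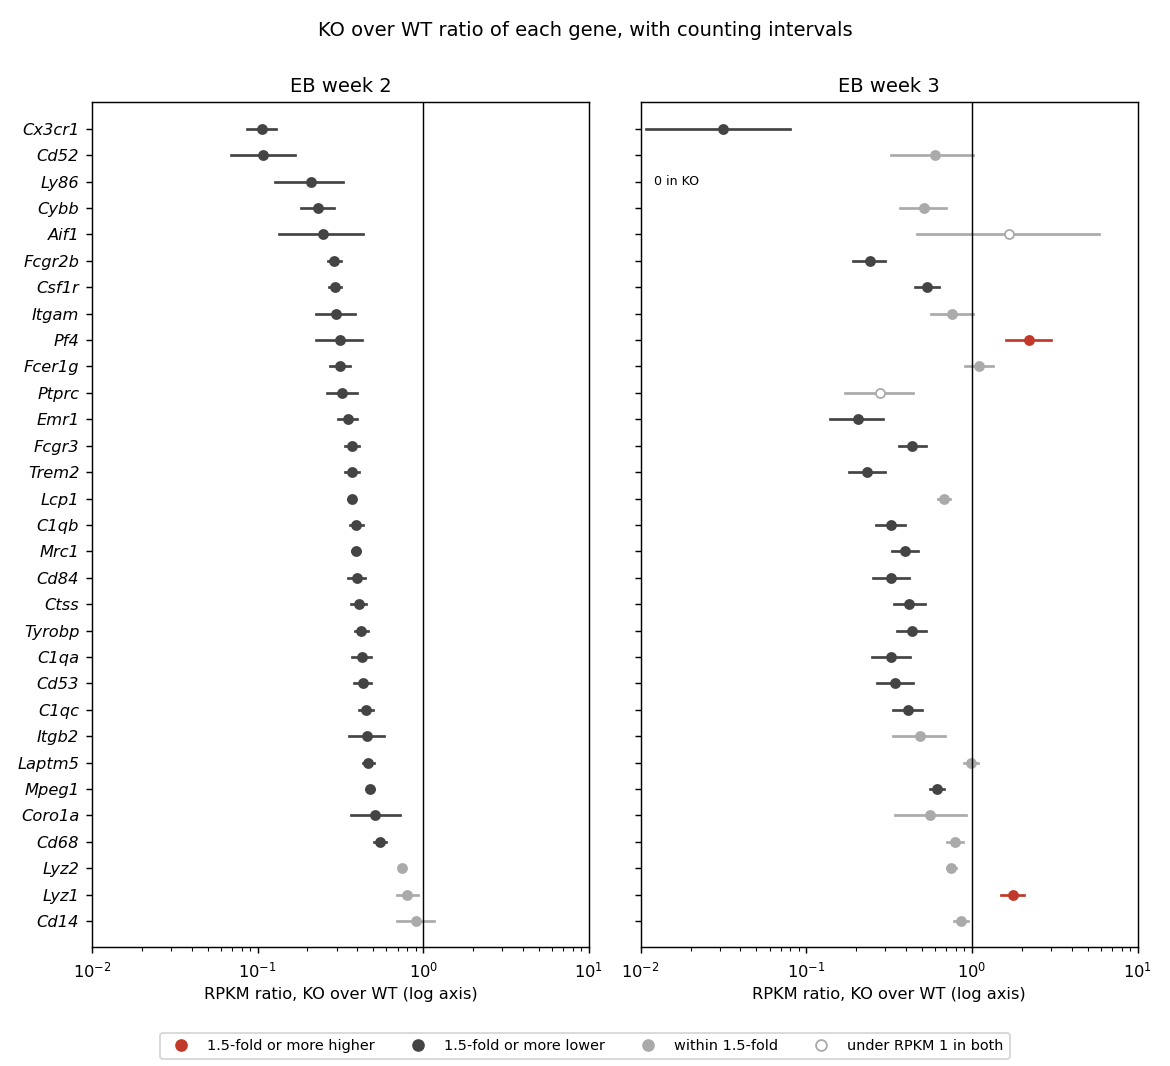
RPKM ratio of KO over WT (log axis) for each gene at EB week 2 and week 3, ordered by the week 2 ratio, with exact binomial 95% counting intervals as bars, and Ly86, at 0 in KO at week 3, written in. All week 2 points lie left of equality, from Cx3cr1 (0.106) to Cd14 (0.899), and at week 3 the points spread from Cx3cr1 (0.0315) to Pf4 (2.21).

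At week 1 no common shift was seen. Of the 31 genes, 14 could be tested, 2 were higher and 3 lower in KO, beside 8.37% and 6.22% of 11569 genes, with a median log2 difference of 0.05 among those tested. At week 3, 28 were tested, 2 were higher and 15 lower in KO, beside 7.65% and 7.69% of 13050 genes, with a median of -0.64. At week 3, 7 of the 28 passed the filter through WT alone (Cx3cr1, Trem2, Cybb, Itgam, Itgb2, Emr1 and Coro1a) and could only be lower. Of the 21 that reached an RPKM of 1 in both, 2 were higher and 12 lower in KO, beside 6.11% and 5.28% of all such genes. In ESCs 4 were tested and 1, Lcp1, was higher in KO, beside 3.84% of 11053 genes (2.29% were lower), and it passed the filter through KO alone. The summed level of the 31 genes was 85.1, 160, 488 and 224 RPKM in KO ESCs and EBs at weeks 1, 2 and 3, against 66.9, 103, 1078 and 337 in WT. Expressed as a share of WT, the KO sum was 127%, 155%, 45.3% and 66.4%. Without 9 genes that other EB cell types are known to express (Pf4, Lyz1, Lyz2, Mrc1, Fcgr2b, Cd14, Cd68, Lcp1 and Ctss), the shares were 96.2%, 99.4%, 38.1% and 51.1%. The genes kept still held Laptm5 (13.1 RPKM in KO and 13.5 in WT ESCs) and Coro1a (5.98 in KO and 7.38 in WT ESCs). These 2 made up most of the remaining ESC sums of 21.2 RPKM in KO and 22 in WT, so the ESC share describes mainly them.

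Over the 4 stages together, limma with terms for stage and genotype called 0 of the 30 genes and 0 of all 13249. At an unadjusted p under 0.05, 8 of the 30 genes passed, beside 15% of all genes, and the median log2 effect was -0.47, against 0.04 over all genes. The smallest p values among the 30 were those of Coro1a (-0.44 ± 0.11 log2, adjusted p = 0.195) and Mrc1 (-0.9 ± 0.25, adjusted p = 0.222). The difference between the genotypes' weekly trends called 0 of the 30 and 0 of 13249 genes, and 0 of the 30 and 187 of all genes (1.41%) had an unadjusted p under 0.05. With weeks 2 and 3 alone, a choice made after seeing the data, the genotype term called 0 of the 30, and 22 of the 30 and 2048 of all 13249 genes had an unadjusted p under 0.05. That fit had 1 residual degree of freedom. The limma genotype fit was also run without ESCs, week 1, week 2 or week 3 in turn. Then 12, 10, 3 and 2 of the 30 had an unadjusted p under 0.05. Over all 13249 genes the numbers were 1820, 1806, 1463 and 1073. The number among the 30 was therefore small without either week 2 or week 3. The trend fit had 2 residual degrees of freedom and a straight-line term, which describes a peak at week 2 poorly.

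Csf1r is the receptor for the growth factors Csf1 and Il34 on which macrophages depend (mm9 chromosome 18, 61265226 to 61291803, plus strand). It read 0.611, 1.86, 6.84 and 2.04 RPKM in KO ESCs and EBs at weeks 1, 2 and 3, against 0.0643, 1.73, 23.3 and 3.81 in WT. KO and WT were near each other at week 1, and KO was 0.293 of WT at week 2 (0.269 to 0.32) and 0.536 at week 3 (0.452 to 0.636). Exons of Csf1r share 871 bases with Hmgxb3 on the opposite strand, which read 14.4 RPKM in KO and 13.4 in WT ESCs, and the library did not mark strand, so the low ESC values of Csf1r are uncertain.

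Cx3cr1, the fractalkine receptor of microglia and monocytes (chromosome 9, 119957811 to 119977400, minus strand), had the lowest KO share of WT at weeks 2 and 3 among genes at an RPKM above 0 in KO. At week 2 its counting interval overlapped that of Cd52, which differed more on the log2(RPKM + 1) scale (-2.76, against -2.61 for Cx3cr1). Its levels were 0.0014, 0.178, 1.52 and 0.069 RPKM in the KO libraries, against 0, 1.03, 14.4 and 2.19 in the WT libraries. It was lower in KO in each of the 3 EB weeks, 9.45-fold at week 2 (7.78 to 11.6, on 107 against 1698 estimated reads) and 31.8-fold at week 3 (12.6 to 92.3, on 5 against 291 reads). Set against Csf1r in the same library, Cx3cr1 stood at 9.6, 22.2 and 3.38 per 100 of Csf1r in KO EBs at weeks 1, 2 and 3, against 59.7, 61.6 and 57.6 in WT EBs. The ratio was steady over the weeks in WT and below the WT values at each week in KO. The KO ratios at weeks 1 and 3 rest on 8 and 5 estimated Cx3cr1 reads and are imprecise. Csf1, a ligand of Csf1r named here after its values were seen, read 1.92, 3.36, 10.1 and 7.51 RPKM in KO and 0.818, 2.73, 15.1 and 6.96 in WT.

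The 3 chains of complement C1q, which join into the molecule that tags debris for uptake, lie side by side on chromosome 4 (136436044 to 136454718 in mm9, minus strand). C1qa read 0, 0.08, 15.7 and 3.68 RPKM in KO ESCs and EBs at weeks 1, 2 and 3, against 0, 0.088, 37 and 11.3 in WT. C1qb read 0, 0, 26.7 and 5.83 RPKM in KO and 0, 0.721, 67.7 and 17.9 in WT. C1qc read 0, 0.248, 21.6 and 5.19 RPKM in KO and 0, 0.25, 47.7 and 12.7 in WT. The 3 chains were listed at 0 in both ESC libraries, stayed under 1 RPKM at week 1 and were highest at week 2. KO was 42.5% (37.4 to 48.2), 39.4% (35.9 to 43.3) and 45.2% (40.8 to 49.9) of WT at week 2 for C1qa, C1qb and C1qc, and 32.5%, 32.6% and 40.8% at week 3. There were 170 C1qb per 100 C1qa in KO and 183 in WT at week 2, and 158 in each at week 3. Per 100 C1qc there were 124 C1qb in KO and 142 in WT at week 2, and 112 in KO and 141 in WT at week 3.

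The Fc receptors bind antibody, and they signal through adaptors that carry the ITAM motif. Tyrobp, also called DAP12, is the adaptor of Trem2 and other receptors (chromosome 7, 31198807 to 31202596, plus strand) and read 0, 5.44, 51.3 and 12.3 RPKM in KO ESCs and EBs at weeks 1, 2 and 3, against 0, 8.8, 121 and 28.4 in WT. It was lower in KO at every EB week, at 61.8% (43.2 to 87.8), 42.3% (38.5 to 46.5) and 43.3% (35.3 to 52.4) of WT. Fcer1g, the common gamma chain of Fc receptors, read 0.0455, 6.5, 20.9 and 13.2 RPKM in KO and 0.0705, 6.68, 66.3 and 11.9 in WT. It fell to 31.5% of WT in KO at week 2 (27.5 to 35.9) and was within 1.5-fold of WT at weeks 1 and 3.

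Fcgr3, an activating receptor, read 0.351, 2.63, 21.2 and 5.63 RPKM in KO ESCs and EBs at weeks 1, 2 and 3, against 0.0506, 2.39, 57.2 and 12.9 in WT. Fcgr2b, the inhibitory receptor, read 0.511, 0.644, 13.9 and 2.16 RPKM in KO and 0.557, 0.242, 47.8 and 8.97 in WT. Trem2, a lipid-sensing receptor, read 0.0415, 0.0792, 5.14 and 0.812 RPKM in KO and 0.0238, 0.098, 13.8 and 3.49 in WT. All of these genes were lower in KO at weeks 2 and 3, Fcgr2b at 29.1% (26.6 to 31.7) and 24.1% (19 to 29.9) of WT and Fcgr3 at 37.1% (33.8 to 40.8) and 43.6% (36 to 52.5). Fcgr2b and Fcgr3 are related genes on chromosome 1, and how reads that match both were shared is not given in the sources used here.

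The lysosomal and microbe-killing genes divided. Lyz2, the lysozyme of macrophages (chromosome 10, 116714390 to 116719377, minus strand), had the highest level of the set and read 0.03, 6.01, 131 and 65.8 RPKM in KO ESCs and EBs at weeks 1, 2 and 3, against 0, 4.8, 176 and 87.6 in WT. Its copy Lyz1, better known from gut Paneth cells, read 0.0096, 0.598, 11.8 and 13.2 RPKM in KO and 0.005, 0.237, 14.7 and 7.52 in WT. Neither passed 1.5-fold at week 2, where KO was 74.4% (71.4 to 77.6) of WT for Lyz2 and 80.1% (69.3 to 92.5) for Lyz1, and at week 3 Lyz1 was 1.76-fold higher in KO (1.5 to 2.06). Lyz2 per 100 of Tyrobp was accordingly 256 in KO and 146 in WT at week 2, and 534 in KO and 308 in WT at week 3. Lyz1 and Lyz2 are near-identical neighbours between which reads could be split, so their separate values are uncertain.

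Ctss, the lysosomal cysteine protease that trims antigen, read 0.0755, 0.381, 18.4 and 4.08 RPKM in KO ESCs and EBs at weeks 1, 2 and 3, against 0.0244, 0.653, 45.1 and 9.73 in WT. Mpeg1, the pore-forming perforin-2 of macrophages, read 0.0307, 0.629, 20.8 and 6.79 RPKM in KO and 0.0216, 0.341, 43.8 and 11 in WT. Both fell at weeks 2 and 3 in KO, Ctss to 40.8% of WT (36.8 to 45.1) and Mpeg1 to 47.6% (45.1 to 50.2) at week 2. Cybb, the catalytic subunit of the NADPH oxidase, stayed under 5 RPKM and was highest at week 2, at 0.972 RPKM in KO and 4.17 in WT.

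Cd68 and Laptm5 were the genes of this group with high levels in ESCs. Cd68, a lysosomal membrane protein, read 61.2, 8.82, 29.8 and 21.1 RPKM in KO ESCs and EBs at weeks 1, 2 and 3, against 43.6, 6.98, 54.3 and 26.8 in WT. Laptm5, a lysosomal protein of blood cells, read 13.1, 11.6, 16.9 and 12 RPKM in KO and 13.5, 11.4, 36.2 and 12.1 in WT. Laptm5 was therefore level with WT in KO ESCs (97%) and at weeks 1 and 3, and lower at week 2 alone, at 46.7% (43.2 to 50.5). Cd68 fell to 54.9% of WT in KO at week 2 (50.3 to 59.8) and was within 1.5-fold at the other stages.

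Among the uptake receptors, Cd14, the co-receptor for bacterial lipopolysaccharide, followed another course. It read 0.252, 0.289, 3.22 and 20.5 RPKM in KO ESCs and EBs at weeks 1, 2 and 3, against 0.177, 0.49, 3.59 and 23.8 in WT. Cd14 was highest at week 3 in both genotypes and within 1.5-fold of WT where it was tested, at 89.9% (69.5 to 116) at week 2 and 86% (78 to 94.9) at week 3. Mrc1, the mannose receptor, read 0.1, 2.16, 13.4 and 1.54 RPKM in KO and 0.11, 7.19, 34.1 and 3.89 in WT. It was lower in KO at all 3 EB weeks, at 30% (25.1 to 35.4), 39.4% (37.1 to 41.8) and 39.6% (33 to 47.2) of WT. Ly86, the partner of the receptor Cd180, was highest at week 2, at 1.17 RPKM in KO and 5.6 in WT, and at week 3 was listed at 0 in KO, on 0 estimated reads, and at 0.984 RPKM in WT, on 35.

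**Figure D4:**
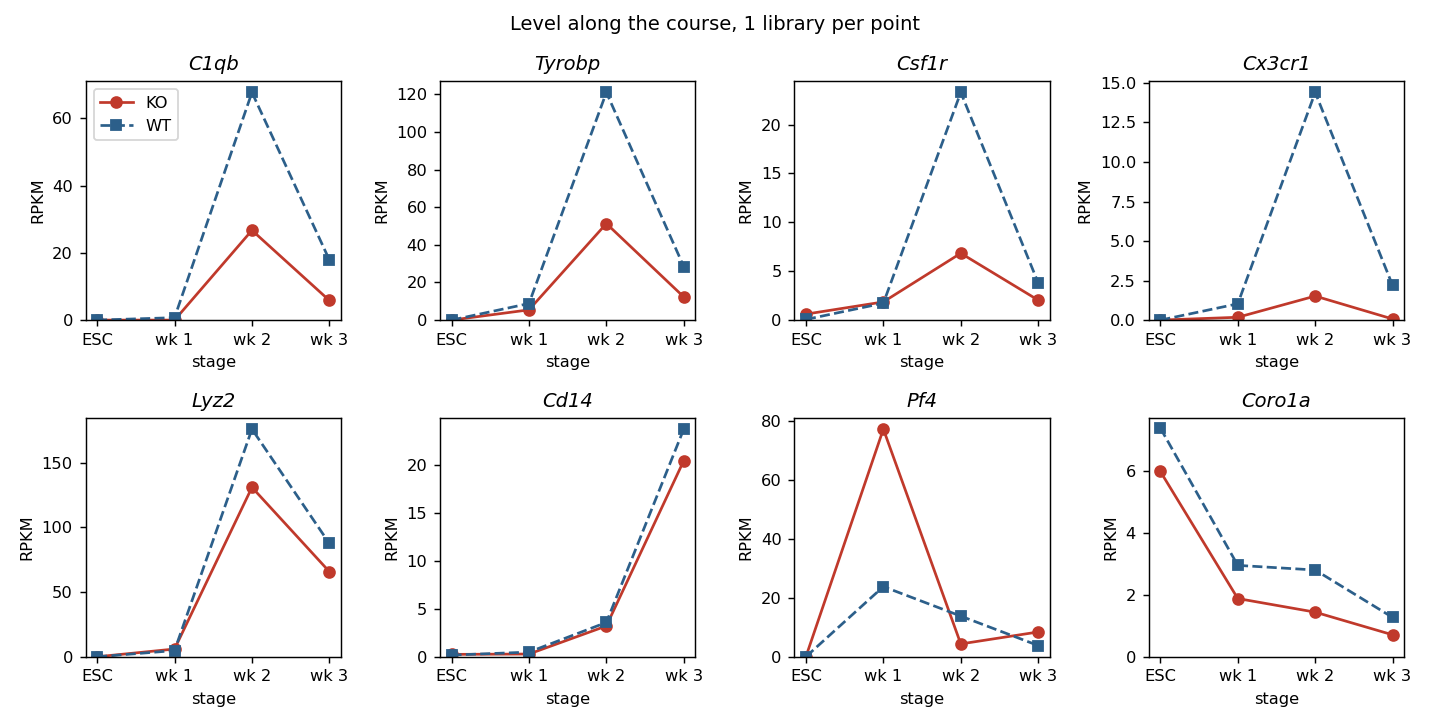
Level in RPKM (vertical axis, from 0, with its own scale in each panel) along the 4 stages for 8 genes, KO as circles on solid lines and WT as squares on dashed lines, with 1 library per point. C1qb, Tyrobp, Csf1r and Cx3cr1 peak at week 2 below the WT peak, Cd14 climbs to 20.5 in KO and 23.8 in WT at week 3, Pf4 peaks at week 1 at 77.2 in KO and 23.8 in WT, and Coro1a is highest in ESCs.

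Of the 7 white cell surface genes, all were lower in KO at week 2 (6.42% of all genes tested), though Itgam passed the filter through WT alone and could only be lower. Emr1, which encodes F4/80, the standard surface marker of mouse macrophages, read 0.0017, 0.0924, 4.42 and 0.58 RPKM in KO ESCs and EBs at weeks 1, 2 and 3, against 0.0086, 0.355, 12.6 and 2.84 in WT. Cd53, a tetraspanin, read 0.0039, 0.325, 6.96 and 1.49 RPKM in KO and 0, 0.78, 16.1 and 4.33 in WT. Cd84, an adhesion receptor of the SLAM family, read 0.0208, 0.121, 5.19 and 1.19 RPKM in KO and 0.0122, 0.0634, 13.1 and 3.68 in WT. Emr1, Cd53 and Cd84 fell in KO at weeks 2 and 3, to 35.1%, 43.2% and 39.7% of WT at week 2 and 20.4%, 34.4% and 32.4% at week 3. Ptprc (the pan-leukocyte phosphatase CD45) and the integrin genes Itgam and Itgb2 were low, with week 2 levels of 1.01, 0.717 and 1.57 RPKM in KO against 3.12, 2.4 and 3.45 in WT.

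Cd52, which encodes a small glycoprotein of white blood cells, turned round between weeks. It read 0.297, 9.17, 2.33 and 1.97 RPKM in KO ESCs and EBs at weeks 1, 2 and 3, against 0.343, 2.84, 21.5 and 3.26 in WT. KO was 3.23-fold higher at week 1 (2.21 to 4.6, on 59 against 67 estimated reads) and 9.22-fold lower at week 2 (5.97 to 14.5, on 23 against 351 reads). Its exons share 172 bases with Aim1l on the opposite strand, which read 0.123 RPKM in KO and 0.144 in WT at week 1, and 0.694 in KO and 0.308 in WT at week 2.

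Of the actin-binding genes, Lcp1, or L-plastin (chromosome 14, 75530908 to 75630649, plus strand), read 1.7, 20.7, 26.2 and 10.8 RPKM in KO ESCs and EBs at weeks 1, 2 and 3, against 0.377, 15.1, 70.7 and 15.9 in WT. It was 4.51-fold higher in KO ESCs (3.92 to 5.2), within 1.5-fold of WT at weeks 1 and 3, and 2.7-fold lower at week 2 (2.57 to 2.83). Exons of Lcp1 share 311 and 219 bases with Gm15628 and Gm15629 on the opposite strand. Levels of those transcripts are not known here, so the low ESC values of Lcp1 are uncertain. Coro1a was highest in ESCs, at 5.98 RPKM in KO and 7.38 in WT, and fell in KO at week 2, to 1.44 in KO against 2.8 in WT. Aif1, the gene of the microglial protein Iba1, was at 0.901 RPKM in KO and 3.64 in WT at week 2 and under 1 RPKM elsewhere.

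Pf4, a chemokine of platelets that macrophage precursors also make (chromosome 5, 91201461 to 91202407, plus strand), ran ahead of the others. It read 0.0675, 77.2, 4.36 and 8.42 RPKM in KO ESCs and EBs at weeks 1, 2 and 3, against 0.0279, 23.8, 13.8 and 3.81 in WT. KO was 3.24-fold higher at week 1 (2.89 to 3.63), 3.17-fold lower at week 2 (2.34 to 4.44) and 2.21-fold higher at week 3 (1.61 to 3.01). At week 1 the megakaryocyte and platelet list moved with it, with 7 of its 10 genes higher and 0 lower in KO, beside 8.37% and 6.22% of all genes. Of the 7 that reached an RPKM of 1 in both libraries, 6 were higher, beside 6.08% of all such genes. The summed level of the list was 110 RPKM in KO against 59.5 in WT. Itgb3 and Itga2b, which form the platelet fibrinogen receptor, read 47.5 and 24.2 RPKM in KO at week 1 against 30.9 and 14.2 in WT. At week 2 that sum was 7.02 in KO and 14 in WT. The part of these cells in the Pf4 values was not tested.

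Other genes of the macrophage pathway were read from lists kept apart from the 31. At week 2 partners of Cybb in the NADPH oxidase fell in KO, Cyba to 40.7 RPKM in KO against 88.8 in WT, Ncf1 to 1.61 in KO against 4.12 in WT and Ncf4 to 1 in KO against 3.53 in WT. The summed level of the 4 partners, of which Cyba was the highest, was not low in ESCs (68.7 in KO, 59 in WT). The KO sum was 43.5% of WT at week 1 (29.5 against 67.9) and 44.6% at week 2, so the difference was already present at week 1. Of the ITAM signalling genes, 0 of 14 tested rose and 9 fell at week 2, beside 10% and 6.42% of all genes. Btk, Vav1, Pik3cg and Was passed through WT alone and could only be lower, and of the other 10 genes 6 fell. Of its genes with the highest levels, Inpp5d read 4.02 RPKM in KO and 4 in WT, and Ptpn6 read 5.63 in KO and 8.12 in WT. Of surface genes of tissue and yolk sac macrophages, 0 of 11 rose and 9 fell, among them the scavenger receptor Msr1 (10.8 RPKM in KO, 26 in WT), Sirpa (18.7 in KO, 39.2 in WT) and Lyve1 (5.22 in KO, 13.9 in WT). Axl, a receptor also found in stromal cells, read 26.5 in KO and 25.3 in WT.

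Of other macrophage and monocyte genes, 1 of 16 rose and 8 fell at week 2, where 10% of all genes tested rose and 6.42% fell. Of the 13 that reached an RPKM of 1 in both libraries, 0 rose and 7 fell. Ms4a6d read 13 RPKM in KO and 20.7 in WT, and Ms4a6c read 4.01 in KO and 9.54 in WT. Of the microglia list, 1 of 7 rose and 4 fell, but P2ry12 and P2ry13 passed through WT alone, and of the other 5 genes 1 rose and 2 fell. The gene that rose was Olfml3 (74.6 in KO, 37 in WT), and Fcrls fell at weeks 2 (1.43 in KO, 8.12 in WT) and 3 (0 in KO, 3.45 in WT). Among lysosomal genes 0 of 16 rose and 7 fell, with Ctsb at 170 RPKM in KO and 279 in WT and Ctsl at 604 in KO and 922 in WT. Of the myeloid transcription factors 0 of 11 rose and 3 fell (0 and 2 of the 8 in both libraries). Maf, a macrophage factor also active in other tissues, fell in KO at each EB week, to 5.58, 9.21 and 2.02 RPKM at weeks 1, 2 and 3 against 13, 33.6 and 12 in WT, and Cebpa read 5.01 in KO and 5.17 in WT at week 2.

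**Figure D5:**
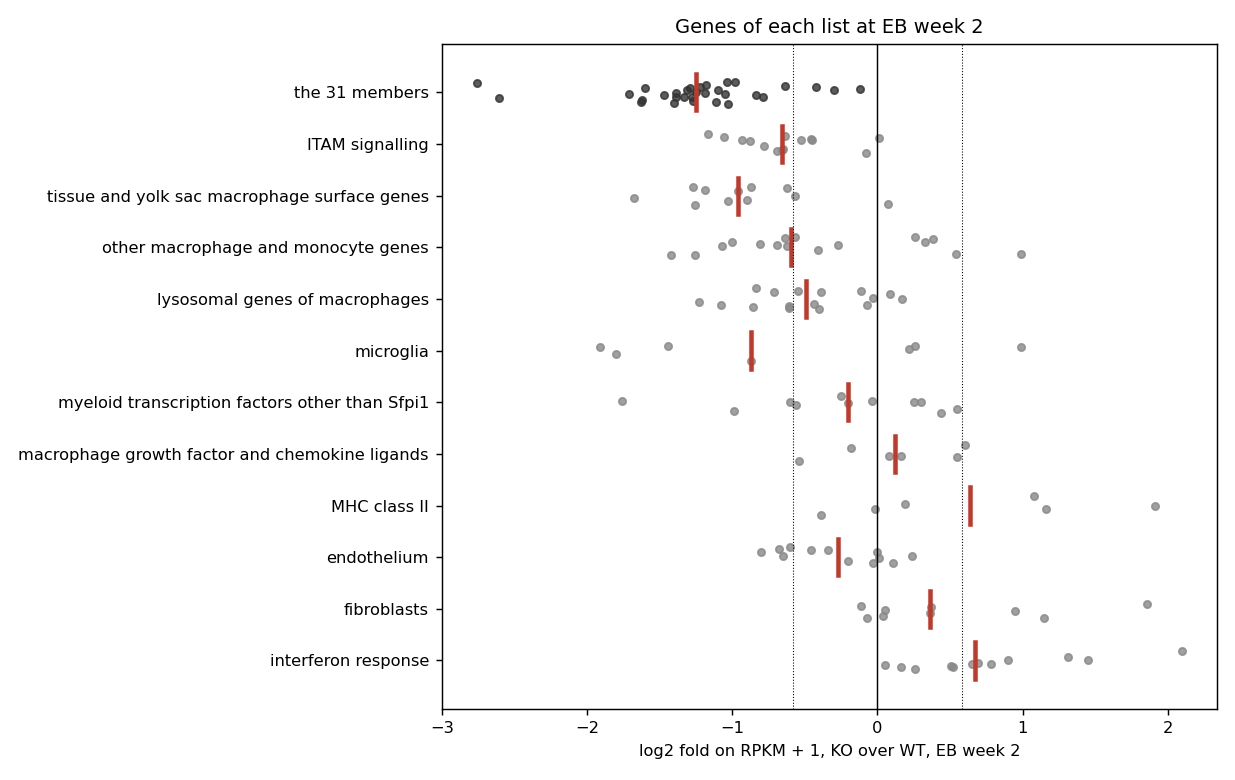
Log2 fold of KO over WT on RPKM + 1 at EB week 2 (horizontal axis) for each tested gene of the set and of 11 other lists (rows, points spread vertically for visibility), with red bars at the medians and dotted lines at 1.5-fold. The set has its median at -1.25 and tissue macrophage genes at -0.96, while ligands stand at 0.12 and interferon genes at 0.67.

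Of 10 growth factor and chemokine ligands 1 of 6 tested rose and 0 fell in KO at week 2, with Gas6 at 87.3 RPKM in KO and 78.3 in WT and Kitl at 24.9 in KO and 23.5 in WT. Cxcl12 rose in KO at each EB week, to 38.7, 88.5 and 61.3 RPKM at weeks 1, 2 and 3 against 12.2, 57.9 and 31.6 in WT. The MHC class II genes went the other way from the set, with 3 of 6 tested higher and 0 lower in KO at week 2 and 5 of 5 higher at week 3. Of those that reached an RPKM of 1 in both libraries, 1 of 3 was higher at week 2 and 2 of 2 at week 3. Cd74, the invariant chain, read 3.66 and 15.1 RPKM in KO at weeks 2 and 3 against 1.21 and 2.12 in WT, and H2-Eb1 read 5.84 and 9.63 in KO against 0.824 and 0.649 in WT. The interferon response list also was higher, with 7 of 12 at week 2 and 11 of 12 at week 3 and 0 lower. Isg15 read 84.5 RPKM in KO and 6.41 in WT at week 3. Over all genes tested, 10% were higher and 6.42% lower in KO at week 2, and 7.65% and 7.69% at week 3.

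Lists of other cell types gave the setting of the week 2 result, where 10% of all genes tested were higher and 6.42% lower in KO. The visceral endoderm and hepatocyte list had 6 of 7 genes lower and 0 higher in KO, with a summed level of 1718 RPKM in KO and 7230 in WT. The endothelial list had 4 of 12 lower and 0 higher (203 in KO, 242 in WT). The blood progenitor list had 1 of 8 higher and 3 lower (91.4 in KO, 88.1 in WT). At week 1, before the peak, 6 of 9 blood progenitor genes and 9 of 10 erythroid genes were lower and 0 higher in KO. Of all genes tested at week 1, 6.22% were lower and 8.37% higher. The summed levels of these 2 lists were 93.8 and 3379 RPKM in KO against 174 and 15571 in WT. The fibroblast list, which feeder cells would carry, summed to 27.7 RPKM in KO and 31.4 in WT ESCs, with Col3a1 at 0.0766 in KO and 0.0528 in WT. The neutrophil list summed to 283 RPKM in KO and 92.8 in WT at week 3, where Lcn2 and Ltf, which epithelia also express, read 171 and 105 in KO against 61.6 and 21.5 in WT, and Fcnb was listed at 0 in all 8 libraries. The part of these cells in the differences of the set was not tested.

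Genes with a course most like the set were found by the root mean square difference between centred log2(RPKM + 1) profiles over the 8 libraries, among 10630 genes that reached an RPKM of 5 somewhere. The nearest were Serpina10 (0.19 log2), Hpgds (0.2), Bcl2a1b (0.21), Clec4n (0.29), Cfb (0.29), C3ar1 (0.29), Hhip (0.31) and Akr1c12 (0.32). Serpina10, the nearest, read 8.04 RPKM in KO and 16.9 in WT at week 2. At the same week C3ar1, the complement C3a receptor, read 8.39 RPKM in KO and 19.4 in WT, and Clec4n, the receptor dectin-2, read 5 in KO and 8.21 in WT. Of the 40 nearest genes, 5 belonged to the set, namely Cd53, Csf1r, Cd84, Emr1 and Trem2, though 26 of the set reached an RPKM of 5. The other 35 were outside the set, so the course was not particular to it. The likeness is a description over 8 libraries.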

How the data were processed

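RNA sequencing of poly(A) RNA gave 1 library for each of 8 groups. The authors used TopHat 1.1.4 with Bowtie 0.12.7 to map the reads (mm9), SAMtools 0.1.18 to handle them, and Cufflinks 1.1.0 for the RPKM of RefSeq genes. The deposited values are log2(RPKM + 1), and 2 to their power minus 1 gave RPKM on a grid of 0.0001 for 100% of values. The libraries were random-primed and did not mark strand. The table's KO columns carry an older name of Uhrf1.

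Reads per library were estimated from the spacing of low RPKM values in 5676 genes with 1 transcript, so read numbers and depths are estimates. Between 2 libraries, genes that reached an RPKM of 1 in at least 1 of the pair were compared on log2(RPKM + 1), which understates the change of low genes, with a call at 1.5-fold and no p-value. Intervals on RPKM ratios are exact binomial at 95% and cover counting error only, since no group had a replicate. Reads carried no molecular identifiers, so copies of the same molecule could not be told apart and the intervals may be too narrow. Read numbers used the longest annotated transcript of each gene, so they may be too high for genes with several transcripts. Across libraries, limma 3.58.1 in R 4.3.3 was fitted to log2(RPKM + 1) with a pseudocount of 1 and a mean trend, for genes that reached an RPKM of 1 in 2 libraries or more, with Benjamini-Hochberg adjustment over all genes and a threshold of 0.05. These p-values use stages or genotypes in place of replicates. The fits and folds were also run on simulated data, which checks the code only. For the fits the simulated spread was 0.15 log2, with no difference between stages other than the added effects. The simulation therefore does not show how the fits behave where stages stand in for replicates. Tables and intervals came from scipy 1.17.1, pandas 2.3.3 and numpy 2.4.6 in Python 3.11.15, and plots from matplotlib 3.10.9.

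Genes with a level of 10 RPKM or more in some library are given in full (24 of 31), the others by range or peak, and other lists by up to 4 genes with the highest levels. The set and the lists were chosen with earlier results of these data known. Alternatives were other pseudocounts, filters, scalings and fold thresholds, and leaving out libraries. Gene positions are in mm9 from GENCODE, and promoter windows in GRCm38.p6 from RefSeq, with no conversion between them. A result on 1 gene outside the set is not reported here.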

Additional observations from a re-analysis of the deposited data

Results flagged for a closer look

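For 3 genes the KO and WT libraries differed past 1.5-fold in opposite directions at different stages. With 1 library per group, the difference between stages was not tested. The log2 fold of KO over WT on RPKM + 1 was 1.40 at week 1 and -2.76 at week 2 for Cd52. For Lcp1 it was 0.97 in ESCs, where its low values are uncertain, and -1.40 at week 2. For Pf4 it was 1.66 at week 1, -1.47 at week 2 and 0.97 at week 3.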

How the results depend on the processing

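The 28 of 31 genes lower in KO at week 2 stayed within 1.5 times that count under each alternative tried. The medians of the set in the week trend fits turned sign. The week trend median of 0.57 became -0.07 without WT week 1. The median difference in trend of -0.34 became 2.12 without WT week 1 and 1.28 without KO week 3, in fits that called 0 of the genes. In ESCs the count of 1 called gene became 2 with no filter on low values, and 0 with a filter at RPKM 5, at a 2-fold threshold, or among genes at RPKM 1 or more in both libraries. At week 1 the count of 5 became 3 when RPKM totals were made equal (Cx3cr1 and Tyrobp then missed 1.5-fold) and 3 at a 2-fold threshold. At week 3 the count of 17 became 10 with a filter at RPKM 5, which also took WT week 1 against ESC to 7 from 13. Among genes at RPKM 1 or more in both libraries, counts became 3 from 12 for KO week 1 against ESC, 2 from 13 for the same step in WT, 9 from 23 for KO week 2 against week 1 and 13 from 30 for that step in WT. EBs against ESCs called 9 genes, 17 with a pseudocount of 0.1 and 20 without the week 1 EB libraries. Over all genes, 31.6% were higher and 22.5% lower in the main fit. Those shares were 34.6% and 21.9% with that pseudocount, and 38.9% and 24.9% without week 1. The median log2 effect over the set was 2.06, 1.7 without the WT ESC library and 2.44 without the KO ESC library. The week trend called 1 gene, 0 with no filter, and 0 to 2 when 1 EB library was left out. The week 2 contrast, chosen after seeing the data, called 4 genes, 0 with no filter, 0 without the mean trend and 0 without any single EB library. Without the 9 genes named above, the KO sum as a share of WT was 96.2%, 99.4%, 38.1% and 51.1% in ESCs and at weeks 1, 2 and 3. Without Lyz2 alone it was 39.6% at week 2 and 63.4% at week 3. The causes were not tested. Of single genes under alternatives, 485 values kept their side of 1.5-fold, 9 passed it newly and 2 lost it. No replicate block could be fitted because the labels give no replicate numbers, and the genotype fit compared KO with WT within each stage. Low counts limit Cx3cr1 in KO weeks 1 and 3 and Ly86 in KO week 3.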
